A study of Homo sapiens with 50 samples.

Results

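The DNA repair genes described here were 51 members of excision repair, end joining, recombination, the Fanconi anemia pathway and mismatch repair, taken by gene symbol from the array annotation, with the brightest probe standing for each gene. All 51 were on the array and all 51 passed the criterion for testing, out of 15798 gene names tested and 25940 on the array. They were measured in H1299, a line from a human non-small cell lung cancer that lacks p53, and in H1299shRAD9, made from it with a retroviral vector (pSUPER.retro.puro) that carries a short hairpin against RAD9 and selected in puromycin. The parental cells carried no vector, so the hairpin, the vector and the selection cannot be told apart, and the labels do not say which stable transfectant each H1299shRAD9 sample came from. Cells grew on concentric Mylar dishes and received 0 Gy (sham) or 1 Gy of 4He ions (α particles, 125 keV per micron), which stopped before the cells on the thicker Mylar, and RNA was taken 4 h later.

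Each line had 5 groups of 5 arrays, 50 in all. CTL was the sham irradiated control, DBP and BP were the directly irradiated and the bystander cells of dishes whose bystander cells had raised micronuclei, and DBN and BN were the same 2 kinds of cells from dishes whose bystander cells showed no such response. The directly irradiated cells received the ions, and the bystander cells shared their medium. Dishes were sorted into these groups by micronucleus counts, so the groups of irradiated dishes were not assigned at random. A level below is the log2 of the background-subtracted Cy3 intensity over the median of its array. Levels of different probes were set against each other only to rank the probes of a gene and in an index of probe position described below.

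Cells repair damaged bases and bulky lesions by excising them and filling the gap from the intact strand, and they rejoin double-strand breaks either end to end or by copying a homologous sequence. The MRE11, RAD50 and NBN proteins form a complex that binds broken ends and activates the ATM kinase, and BRCA1, BRCA2 and their partners act in recombination. RAD9, the gene targeted here, belongs to the ring-shaped clamp that is loaded at damaged DNA and activates the ATR checkpoint.

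Probe sequences are shown for 2 members, MRE11A, whose values moved with an index of probe position, and ERCC2, whose 2 probes read in opposite directions. The MRE11A probe lies at chr11:94192656-94192715 on the minus strand of hg19. The first ERCC2 probe lies at chr19:45856515-45856574 and the second at chr19:45864815-45864874, both on the minus strand, and the first is nearer the end of the transcript. Each is printed 5′ to 3′ in the sense of the transcript, and capitals are not used.
MRE11A: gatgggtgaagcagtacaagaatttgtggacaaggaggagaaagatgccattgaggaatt
ERCC2, probe 1: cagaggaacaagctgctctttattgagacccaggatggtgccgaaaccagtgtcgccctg
ERCC2, probe 2: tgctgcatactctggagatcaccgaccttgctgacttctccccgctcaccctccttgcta

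Several features of the whole series bear on what follows. Between 55.1% and 83.2% of probes were well above background on each array, and among the members 50 were well above background on all 50 arrays and LIG4 on 45. The epithelial and mesenchymal genes KRT8, KRT18, KRT19 and VIM were detected on all 50 arrays and EPCAM on 5, while COL1A1, COL3A1, PECAM1, ALB and GFAP, markers of other cell types, were detected on 1 to 8. The probe of the leukocyte gene PTPRC was above background on all 50 and higher in H1299shRAD9 CTL (1.31 ± 0.423, SD, n = 5) than in H1299 CTL (0.113 ± 0.559, limma adjusted p = 0.0159), and its part in the results was not tested. RAD9A, the targeted gene, was at 3.65 ± 0.188 in H1299shRAD9 CTL and 4.01 ± 0.131 in H1299 CTL (SD, n = 5), a log2 difference of -0.36 with a limma adjusted p of 0.0561 that did not pass the threshold, and -0.34, -0.12, 0.06 and -0.11 in the DBP, BP, DBN and BN groups. These are RNA values from 1 probe. The paper chose its stable transfectants by a strong loss of RAD9 protein on Western blots, which the arrays do not measure. H1299 DBN replicate 1 stood apart, with 83.2% of probes above background and a mean level of the 51 members of 3.40, against 3.98 to 4.40 in the other 4 arrays of its group. The 50 arrays lay on 13 slides, and only 1 slide held arrays of both lines from the same group (1 BP array of each), so cell line and slide cannot be told apart.

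Whether the repair genes differed between unirradiated H1299shRAD9 and H1299 was the first question. A few genes differed, in both directions. MRE11A, the nuclease of the break-binding complex, was lower in H1299shRAD9, as were ERCC2, a helicase of transcription factor TFIIH that opens DNA around bulky lesions, and RAD51C, which acts in recombination. BRCA1, which promotes recombination at broken ends, was higher. A gene was called when limma gave p below 0.005 together with a false discovery rate below 10% over all 20079 features, and 4 of the 51 members were called, 1 higher and 3 lower. That is 7.84% of members, beside 13.0% of all features. The members' median log2 difference was 0.04 and that of all features 0.06, while the median absolute difference was 0.124 for the members and 0.238 for all features. At an unadjusted p below 0.05, 14 members (27.5%) and 33.9% of features differed.

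**Figure D1:**
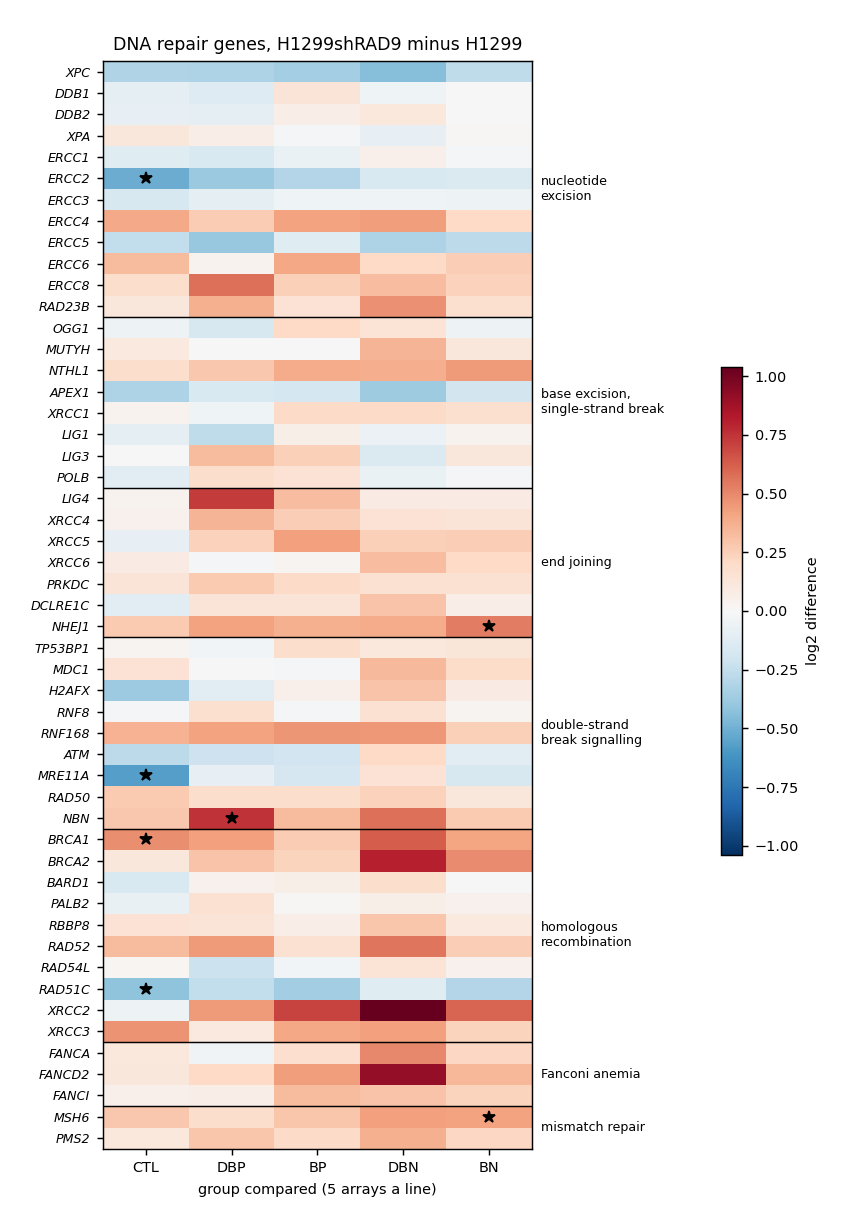
Log2 difference, H1299shRAD9 minus H1299, for the 51 DNA repair genes (rows, grouped by pathway) in the 5 groups (columns, 5 arrays a line), with red for higher and blue for lower in H1299shRAD9 and a star on each called difference. The 7 stars sit on MRE11A, BRCA1, ERCC2 and RAD51C in CTL, on NBN in DBP and on NHEJ1 and MSH6 in BN.

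MRE11A levels in H1299shRAD9 CTL were 2.63, 2.45, 2.28, 2.58 and 2.63 in replicates 1 to 5. In H1299 CTL they were 2.90, 3.06, 3.11, 3.01 and 3.35. Every H1299shRAD9 array lay below every H1299 array, by a log2 difference of -0.57 ± 0.116 (SE, n = 5 per line, adjusted p = 0.011). MRE11A was the member with the smallest p in this comparison, and its call held in 15 of 16 alternatives. The exception was the added index of probe position, which is described with the irradiated and bystander cells. With it the difference was -0.34 (limma adjusted p = 0.173). The other members of its complex were not called. RAD50, the ATPase that holds broken ends together, differed by 0.27 (adjusted p = 0.0803) and NBN, the subunit that recruits ATM, by 0.28 (adjusted p = 0.202), both toward higher levels in H1299shRAD9.

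BRCA1 levels in H1299shRAD9 CTL were 3.94, 4.00, 3.81, 3.94 and 3.86. In H1299 CTL they were 3.40, 3.33, 3.20, 3.60 and 3.60. The lowest H1299shRAD9 array lay above the highest H1299 array, with a log2 difference of 0.48 ± 0.108 (SE, n = 5 per line, adjusted p = 0.0151). In the irradiated and bystander groups BRCA1 was higher by 0.43 in DBP, 0.26 in BP, 0.63 in DBN and 0.41 for BN. None of these was called, and the 2 lines did not overlap in DBN or BN. The CTL call was lost without replicate 2 (adjusted p = 0.0491, with p above its own threshold), with normexp background correction (0.33, adjusted p = 0.0491) and with all 10 groups in 1 fit (adjusted p = 0.0823).

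ERCC2, read by the first of its printed probes, was at 3.20, 3.08, 3.84, 3.48 and 3.65 in H1299shRAD9 CTL. In H1299 CTL it was at 3.95, 4.00, 3.91, 3.86 and 4.12. The groups did not overlap, although the gap between the nearest arrays was small, and the log2 difference was -0.52 ± 0.146 (SE, n = 5 per line, adjusted p = 0.035). The second printed probe, nearer the start of the transcript, read the other way. It was at 2.88, 3.08, 3.41, 2.86 and 2.77 in H1299shRAD9 CTL and at 3.19, 2.82, 2.33, 2.56 and 2.60 in H1299 CTL, which overlapped, with a difference of 0.30 (adjusted p = 0.239). The mean of both probes gave -0.11 (adjusted p = 0.591), so the call concerns the region of the first probe, and it was also lost in 10 other alternatives, 4 of them the omission of replicate 1, 2, 4 or 5.

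RAD51C levels in H1299shRAD9 CTL were 5.95, 5.75, 5.45, 5.59 and 5.53. In H1299 CTL they were 5.88, 6.22, 6.11, 6.03 and 6.11. The highest array of H1299shRAD9 lay above the lowest of H1299, and the difference of -0.42 ± 0.119 (SE, n = 5 per line, adjusted p = 0.0363) was called in 5 of 17 alternatives, the call being lost without replicate 2, 3, 4 or 5. RAD51C was also lower in the other groups, by -0.26 in DBP, -0.36 in BP, -0.13 in DBN and -0.30 for BN, with none called. It forms a complex with XRCC3, and XRCC3 differed by 0.46 in CTL (adjusted p = 0.056) without a call at its brightest probe, while its second probe, higher by 0.46 (limma adjusted p = 0.0348), passed the threshold.

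**Figure D2:**
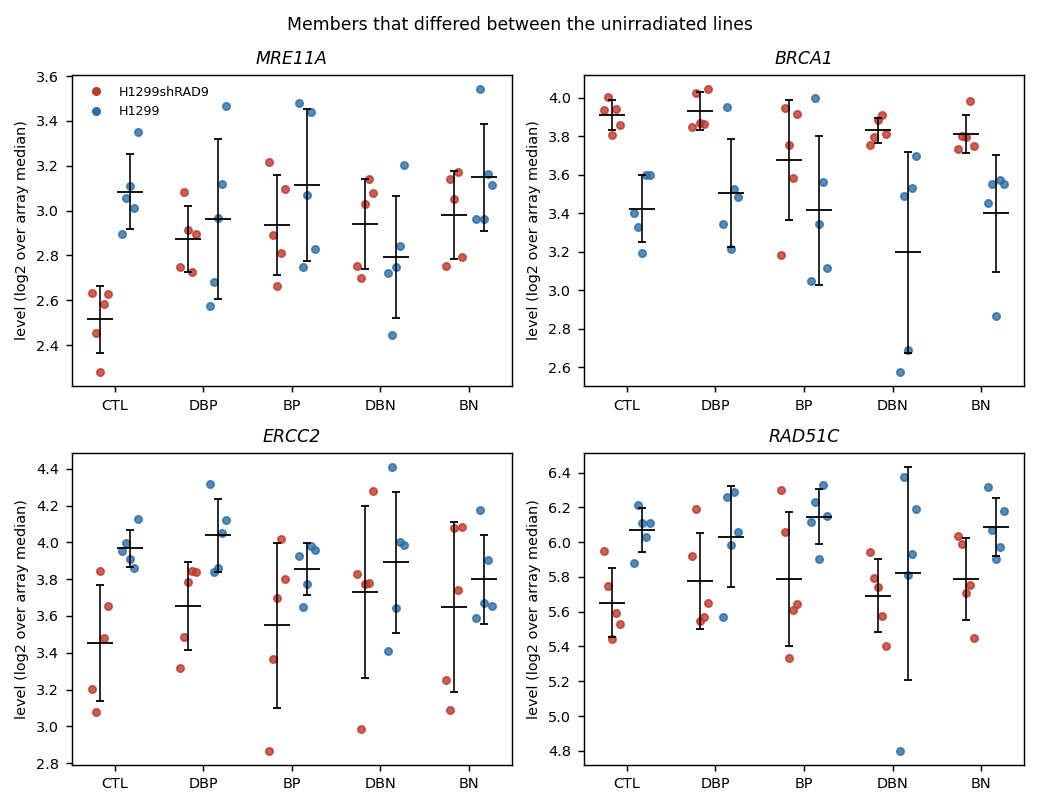
Levels (log2 over the array median) of MRE11A, BRCA1, ERCC2 (first probe) and RAD51C in the 5 groups, one point per array, H1299shRAD9 in red and H1299 in blue, with bars for the mean ± SD of 5 arrays. In CTL the lines separate for MRE11A, BRCA1 and ERCC2, and MRE11A in H1299shRAD9 is lower in CTL (2.28 to 2.63) than in any of its irradiated or bystander groups.

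The pathways can be read one by one from the same arrays. Over all features in CTL, 13.0% were called, 56.8% were positive and the median was 0.06, and the pathway values below stand beside these. In nucleotide excision repair 1 of 12 members was called (ERCC2), 5 were positive and 7 negative, and the median was -0.09. XPC, which recognizes helix distortion, was at 1.75, 1.67, 1.28, 1.54 and 1.27 in H1299shRAD9 CTL. In H1299 CTL it was at 1.66, 2.08, 1.77, 1.75 and 1.80. Most H1299shRAD9 arrays were lower but the lines overlapped, and the difference of -0.31 ± 0.129 (SE, n = 5 per line) had an adjusted p of 0.111. It was -0.32 in DBP, -0.35 in BP, -0.44 in DBN and -0.26 for BN, and in no group was it called. DDB2, the damage sensor for ultraviolet lesions that works upstream of XPC, differed by between -0.10 and 0.11 in the 5 groups, and its second probe by -0.43 in CTL (adjusted p = 0.0555).

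In base excision and single-strand break repair none of 8 members was called by limma, and the median was -0.03. APEX1, the endonuclease that cuts at abasic sites, was at 3.30, 3.32, 3.01, 3.39 and 3.17 in H1299shRAD9 CTL. In H1299 CTL it was at 3.59, 3.25, 3.76, 3.77 and 3.45. The lines overlapped only through H1299 replicate 2. By limma the difference was -0.32 ± 0.128 (SE, adjusted p = 0.0988, not called). APEX1 was the only member of this pathway with an unadjusted p below 0.05. XRCC1, the scaffold of single-strand break repair, differed by 0.03 and LIG3, the ligase it binds, by -0.003.

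In end joining none of 7 members was called in CTL, with a median of 0.05. XRCC6 and XRCC5, the Ku subunits that cap broken ends, differed by 0.08 and -0.08, and LIG4, the ligase that seals them, by 0.04. In double-strand break signalling MRE11A was the 1 call among 9 members and the median was 0.03. RNF168, a ubiquitin ligase that marks chromatin beside breaks, was named after its values were seen. It differed by 0.36 in CTL (limma adjusted p = 0.0891), 0.42 in DBP, 0.46 in BP, 0.45 in DBN and 0.24 for BN, none called. Being positive in every group did not set it apart, since NBN, RAD50, BRCA1, NHEJ1 and MSH6 were too, as was the median of all features. In homologous recombination 1 of 10 members was higher (BRCA1) and 1 lower (RAD51C), and BRCA2, which acts in recombination at broken ends, differed by 0.12. In the Fanconi anemia pathway FANCA, FANCD2 and FANCI were all slightly positive in CTL (0.11, 0.12 and 0.05) with none called, and the 3 FANCD2 probes read 0.12, 0.32 and -0.03. In mismatch repair MSH6, which recognizes mispaired bases, differed by 0.28 (adjusted p = 0.065) without overlap between lines, and PMS2, whose family includes near-identical pseudogene copies that probes may share, by 0.11. Of the other 3 PMS2 probes, 2 read 0.14 without a call and the dimmest was lower, at -0.36 (limma adjusted p = 0.0309), past the threshold in the opposite direction.

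The same contrast in the irradiated and bystander groups used arrays that share no sample with CTL. In DBP 1 of the 51 members was called (1.96%), beside 5.39% of all features. In BP limma called 0 members, beside 6.57% of features, and 7 members (13.7%) had an unadjusted p below 0.05, beside 22.4% of features. In DBN 0 members were called, beside 2.47% of features, and 5 (9.8%) had an unadjusted p below 0.05, beside 17.1% of features. In BN 2 members were called (3.92%), beside 7.52% of features. The members' median log2 differences were 0.10 in DBP, 0.16 in BP, 0.21 in DBN and 0.12 for BN, and those of all features 0.10, 0.12, 0.16 and 0.13. Without H1299 DBN replicate 1, the array that stood apart, the DBN median was 0.07 beside 0.04 for all features, with 27 of 51 members positive where 40 had been before and 0 called. These medians depended on the scaling. With 75th percentile scaling the members' medians were 0.04, 0.04, 0.07 and 0.04 in the same order and those of all features 0.03, -0.01, 0.02 and 0.05. With normexp background correction the members' medians were 0.24, 0.17, 0.12 and 0.78, and those of all features 0.18, 0.12, 0.08 and 0.57.

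The called member in DBP was NBN. Its levels in H1299shRAD9 DBP were 3.67, 4.12, 3.85, 3.97 and 3.74. In H1299 DBP they were 2.36, 3.12, 3.40, 3.40 and 3.31. Every H1299shRAD9 array was higher, H1299 replicate 1 was the lowest by a wide margin, and the difference was 0.75 ± 0.207 (SE, n = 5 per line, adjusted p = 0.0744). Leaving out replicate 1 kept the call, while leaving out replicate 2, 3, 4 or 5 ended it with differences between 0.69 and 0.83. NBN was also higher in CTL (0.28), BP (0.33), DBN (0.58) and BN (0.27), with none called.

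The called members in BN were NHEJ1 and MSH6. NHEJ1, also named XLF, supports ligation of ends by LIG4 and XRCC4, and in H1299shRAD9 BN it was at 1.64, 1.60, 1.94, 1.68 and 2.10. In H1299 BN it was at 1.01, 0.97, 1.48, 1.55 and 1.27. The lines did not overlap, and the difference was 0.54 ± 0.157 (SE, n = 5 per line, adjusted p = 0.0654). MSH6 was at 7.41, 7.40, 7.56, 7.70 and 7.40 in H1299shRAD9 BN. In H1299 BN it was at 7.09, 6.89, 7.0, 7.13 and 7.25. Again the lines did not overlap, and the difference was 0.42 ± 0.12 (SE, n = 5 per line, adjusted p = 0.0603). Both calls were lost without any 1 of the 5 replicates and under 75th percentile scaling (0.46 for NHEJ1 and 0.34 for MSH6). NHEJ1 was higher by 0.27 in CTL, 0.42 in DBP, 0.37 in BP and 0.38 in DBN, and MSH6 by 0.28, 0.19, 0.29 and 0.43, with none of these called.

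**Figure D3:**
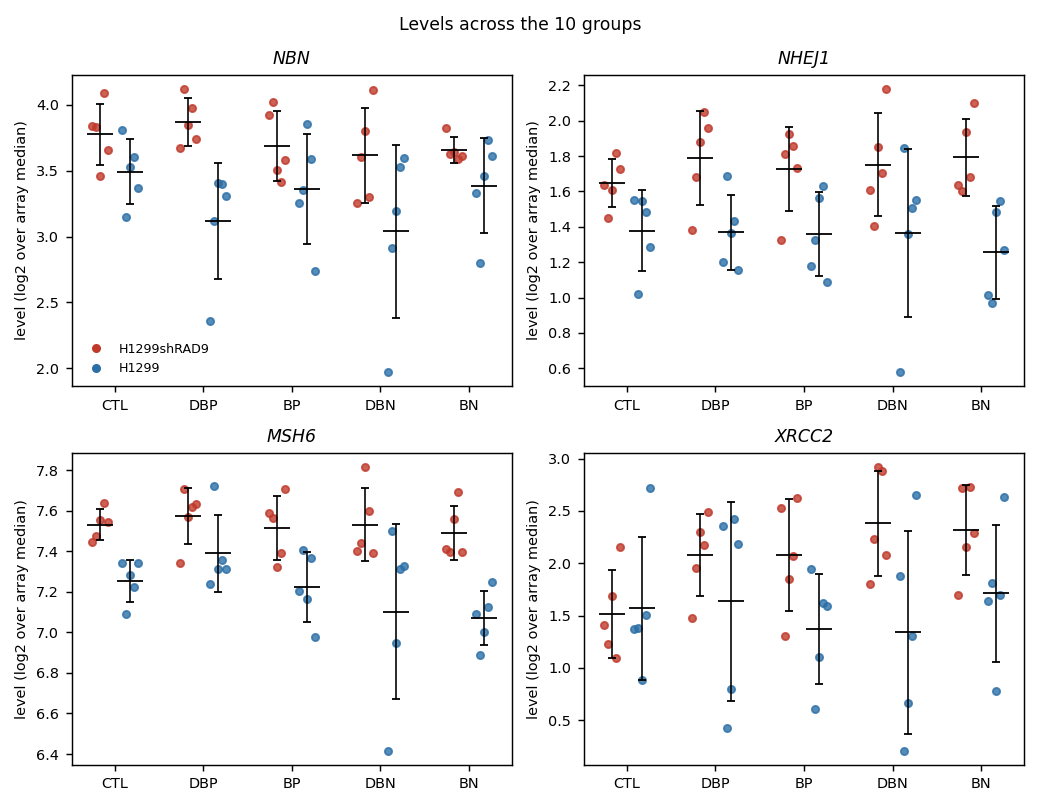
Levels (log2 over the array median) of NBN, NHEJ1, MSH6 and XRCC2 in the 5 groups, one point per array, H1299shRAD9 in red and H1299 in blue, with bars for the mean ± SD of 5 arrays. NBN in DBP and NHEJ1 and MSH6 in BN do not overlap between lines, whereas XRCC2 overlaps in each group and spreads over 0.21 to 2.65 in H1299 DBN.

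Whether irradiation changed the repair genes within a line was asked against CTL of the same line, with the replicate number as a block, p below 0.006 and a false discovery rate below 10%. The 4 comparisons within a line share their CTL arrays, and H1299shRAD9 CTL also forms one side of the comparison of unirradiated lines, so these comparisons are not independent of each other. In H1299shRAD9, limma called 0 of 51 members in DBP beside 1.29% of features, 1 in BP (1.96%) beside 1.61%, 0 in DBN beside 2.80% and 0 in BN beside 0.0299%. An unadjusted p below 0.05 was found for 3, 4, 5 and 3 members (5.88%, 7.84%, 9.8% and 5.88%), beside 13.9%, 10.8%, 14.3% and 13.5% of features. The shares of features called moved with single replicates, from 0% (without replicate 2) to 4.9% (without replicate 1) in DBP, from 0% (without replicate 2, 4 or 5) to 1.46% in BP and from 0.129% (without replicate 3) to 3.39% in DBN, where leaving out replicate 1, 2 or 4 gave 0.847%, 0.259% and 0.159%. In BN the share was 0% without any 1 replicate. In H1299, limma called 0 members in each of DBP, BP, DBN and BN, beside 0.0349%, 0%, 0.00996% and 0% of features, and 1, 0, 2 and 2 members (1.96%, 0%, 3.92% and 3.92%) had an unadjusted p below 0.05, beside 5.57%, 5.67%, 3.28% and 3.42% of features. Over the 17 comparisons, 867 tests of members gave 8 calls in 7 members.

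In H1299shRAD9 the members' median log2 differences were 0.06 in DBP, 0.04 in BP, 0.00 in DBN and 0.04 for BN, beside 0.03, 0.02, -0.01 and 0.00 for all features. In H1299 they were -0.01, -0.06, -0.14 and -0.06, beside 0.02, -0.06, -0.10 and -0.04. With normexp background correction the H1299 medians were -0.21, -0.21, -0.16 and -0.80, beside -0.20, -0.18, -0.11 and -0.64 for all features. In H1299 DBN 46 of 51 members were negative, as were most features, since 27.7% of features were positive. Without replicate 1 (the array that stood apart and its CTL pair), 22 of 51 members were negative and the median was 0.04, beside 0.04 for all features.

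**Figure D4:**
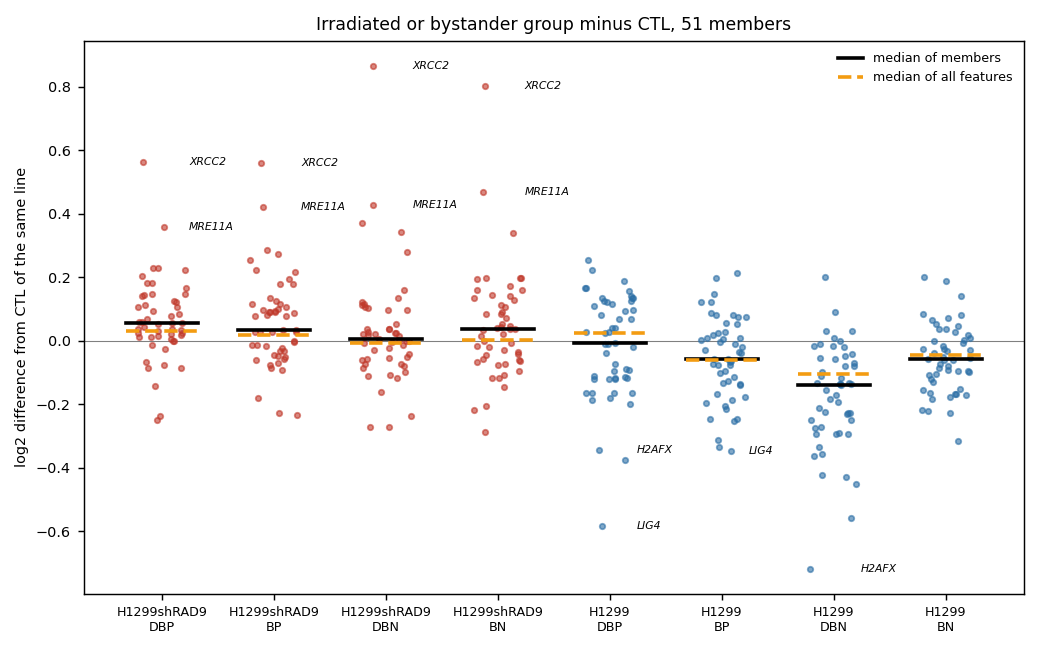
Log2 difference from CTL of the same line for the 51 members (points) in the 8 irradiated or bystander groups, H1299shRAD9 in red and H1299 in blue, with black lines at the members' median and dashed orange lines at the median of all features. XRCC2 and MRE11A head each H1299shRAD9 column (0.36 to 0.86), LIG4 lies lowest in H1299 DBP (-0.58) and H2AFX lowest in H1299 DBN (-0.72).

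MRE11A was the called member, in BP of H1299shRAD9. Its levels in BP were 3.22, 2.89, 2.66, 2.81 and 3.10, against 2.63, 2.45, 2.28, 2.58 and 2.63 in CTL. All 5 pairs were higher and the groups did not overlap, with a difference of 0.42 ± 0.09 (SE, 5 pairs, adjusted p = 0.0873). In DBP it was at 2.75, 3.08, 2.91, 2.73 and 2.90. In DBN it was at 2.75, 2.70, 3.03, 3.14 and 3.08, and in BN at 2.75, 3.14, 3.05, 3.17 and 2.79. These groups too were higher than CTL in all 5 pairs without overlap, by 0.36, 0.43 and 0.47, with adjusted p-values of 0.209, 0.128 and 0.201, so none was called. The 4 groups share the same 5 CTL arrays, which were the low ones. In H1299 the differences were -0.12 in DBP, 0.03 in BP, -0.29 in DBN and 0.06 for BN, with adjusted p-values from 0.846 to 1. The difference between lines in the change of MRE11A was 0.48, 0.39, 0.72 and 0.40 in DBP, BP, DBN and BN (limma adjusted p = 0.632, 0.758, 0.266 and 0.673), so a different response of the lines was not shown. Over all members this test called 0, 0, 0 and 0 in the same order, beside 0%, 0%, 0.0149% and 0% of features, and 2, 3, 5 and 6 members (3.92%, 5.88%, 9.8% and 11.8%) had an unadjusted p below 0.05, beside 7.74%, 6.51%, 7.02% and 7.29% of features. Set against H1299 of the same group, MRE11A in H1299shRAD9 differed by -0.09 in DBP, -0.18 in BP, 0.15 in DBN and -0.17 for BN, with overlap in each group and no call.

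The call in BP was lost without any 1 of the 5 replicates (0.38 to 0.47) and in 8 other alternatives. A property of the arrays moved with it. The 5′ to 3′ index, the median over 3410 genes of the difference between the probe nearest the start and the probe nearest the end of a transcript, ran from -1.577 to -1.499 in H1299shRAD9 CTL and from -1.497 to -1.33 in the irradiated and bystander arrays of that line, with every CTL array lower. In H1299 CTL it ran from -1.545 to -1.339, inside the range of the irradiated and bystander H1299 arrays. With the index as a covariate the MRE11A difference in H1299shRAD9 was 0.18 in DBP, 0.49 in BP, -0.46 in DBN and 0.04 for BN. Since the index and exposure (direct or bystander) separate the same arrays from CTL in this line, their parts in the MRE11A values cannot be told apart. The same holds for every feature compared between these groups and CTL in H1299shRAD9. With the index as a covariate, 0, 0, 0 and 5 features were called in DBP, BP, DBN and BN, beside 260, 324, 562 and 6 without it. Between the unirradiated lines it left 5.64% of features called, beside 13.0%.

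**Figure D5:**
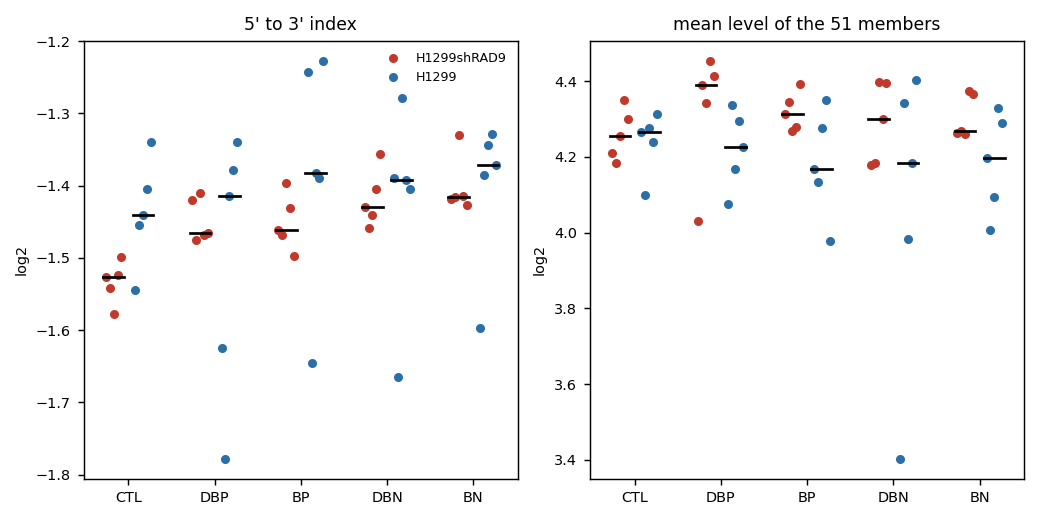
The 5′ to 3′ index (left, log2) and the mean level of the 51 members (right, log2 over the array median) for each array, H1299shRAD9 in red and H1299 in blue, with a bar at the median of 5 arrays. H1299shRAD9 CTL has the lowest index of its line (-1.577 to -1.499), and 1 H1299 DBN array lies apart at a mean member level of 3.40.

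XRCC2, which acts in homologous recombination, had the largest positive difference of any member in each of the 4 comparisons of H1299shRAD9 with its CTL, and was named after its values were seen. In CTL it was at 1.41, 1.23, 1.69, 1.1 and 2.15, and in DBP at 1.48, 1.95, 2.30, 2.17 and 2.49. In BP it was at 2.53, 1.3, 1.85, 2.07 and 2.62. In DBN it was at 1.80, 2.23, 2.92, 2.88 and 2.08, and in BN at 1.70, 2.72, 2.16, 2.73 and 2.29. The differences were 0.56 in DBP and in BP, 0.86 in DBN and 0.80 for BN, with all 5 pairs higher except in DBN, where replicate 5 was lower. The groups overlapped with CTL in each case, and the adjusted p-values were 0.138, 0.207, 0.153 and 0.245, so none was called. The DBP difference passed the threshold without replicate 1 (0.69, adjusted p = 0.0727) and when only features above background on all 50 arrays were tested, and the DBN difference without replicate 5 (1.1, adjusted p = 0.0647). Over all alternatives the lowest XRCC2 differences were 0.43, 0.42, 0.48 and 0.27 in DBP, BP, DBN and BN. The 5′ to 3′ index separates these same arrays from CTL, so its part and that of exposure cannot be told apart here either. In H1299 the differences were 0.07, -0.20, -0.23 and 0.14, and the 5 arrays of H1299 DBN ranged from 0.21 to 2.65. The differences between lines of 0.50, 0.76, 1.1 and 0.66 had adjusted p-values from 0.324 to 0.748.

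Promoters are shown for MRE11A and XRCC2, the members with the largest positive differences in all 4 H1299shRAD9 comparisons. The 250 bases before the RefSeq start of each gene in GRCh38.p14 are printed 5′ to 3′ on the gene's strand, chr11:94493845-94494094 for MRE11A (listed as MRE11) and chr7:152676142-152676391 for XRCC2, both on the minus strand. Capitals mark a CCAAT box (CCAAT), a GC box (GGGCGG) or a cyclic AMP response element (TGACGTCA), searched on both strands.
MRE11A promoter: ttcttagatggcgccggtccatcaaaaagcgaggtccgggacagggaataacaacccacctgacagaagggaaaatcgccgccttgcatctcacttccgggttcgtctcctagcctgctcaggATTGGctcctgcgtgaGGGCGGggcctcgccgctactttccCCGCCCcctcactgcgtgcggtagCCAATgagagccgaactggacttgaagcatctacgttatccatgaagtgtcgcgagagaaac
XRCC2 promoter: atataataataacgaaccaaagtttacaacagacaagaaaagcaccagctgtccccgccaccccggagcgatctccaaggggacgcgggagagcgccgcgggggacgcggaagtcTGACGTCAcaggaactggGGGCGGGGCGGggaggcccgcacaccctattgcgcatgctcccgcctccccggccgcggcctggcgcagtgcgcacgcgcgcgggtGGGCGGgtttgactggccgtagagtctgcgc

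A promoter window was found for 46 of the 51 members. The CCAAT box was in 22 of them (47.8%) and in 32.7% of all 27305 promoters, and the GC box in 31 (67.4%) and in 41.3%. The cyclic AMP response element was in 3 members (6.52%), PMS2, RAD51C and XRCC2, and in 1.73% of all promoters. The 27305 promoters were not limited to genes on the array or genes tested, whereas all 51 members were tested. The shares therefore come from unlike sets, and whether the members differ from other tested genes was not tested. These matches describe letters in a window and are not binding sites.

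Among the remaining members H2AFX, which encodes the histone variant phosphorylated around breaks, was named after its values were seen as the lowest member in H1299 DBN. It was at 8.95, 8.38, 8.96, 9.05 and 9.31 in H1299 CTL. In H1299 DBN it was at 7.65, 8.10, 8.05, 8.38 and 8.88. All 5 pairs were lower although the ranges overlapped. The limma difference of -0.72 ± 0.242 (SE, adjusted p = 1) was not called, and it was -0.57 without replicate 1. In DBP, BP and BN of H1299 it differed by -0.34, -0.25 and -0.32, and in H1299shRAD9 by -0.09, 0.18, -0.04 and 0.14 in DBP, BP, DBN and BN. The median of 52 G2/M phase genes was -0.63 in H1299 DBN and -0.51 in H1299 DBP, with 0 and 3 called lower by limma, and -0.33 and -0.24 in the same groups of H1299shRAD9, with 12 and 10 called lower. In the same order, 0.00996%, 0.0349%, 0.847% and 0.558% of all features were called lower. The part of the G2/M phase genes in the H2AFX values was not tested. The BRCA2 and FANCD2 differences in H1299 DBN were -0.56 and -0.42, neither called, and -0.49 and -0.61 without replicate 1. Replicate 2 was the lowest H1299 DBN array for both, at -0.10 for BRCA2 (others 0.33 to 1.15) and 1.09 for FANCD2 (others 2.46 to 3.18). FANCD2 was higher than its CTL pair in replicates 1 and 4. These FANCD2 values are from its brightest probe only. In H1299shRAD9 DBN that probe differed from CTL by 0.37 and the other probes by 0.045 and -0.12.

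A wider set of 65 other genes of the same pathways had 63 on the array and 62 tested. Between the unirradiated lines 3 of 62 were higher and 0 lower (limma), beside 13.0% of all features called. Higher and lower genes numbered 1 and 0 in DBP, 4 and 1 in BP, 0 and 0 in DBN and 2 and 0 in BN, beside 5.39%, 6.57%, 2.47% and 7.52% of features called, and no gene of the set was called in any irradiation comparison of either line. TDG, the glycosylase that removes thymine from G:T mismatches, was at 6.16, 6.27, 6.39, 6.36 and 6.31 in H1299shRAD9 CTL. In H1299 CTL it was at 5.51, 5.54, 5.72, 5.72 and 5.82. The lines lay clear of each other, and TDG was higher by 0.64 ± 0.101 (SE, n = 5 per line, adjusted p = 0.00347) in CTL, by 0.72 in DBP, 0.62 in BP and 0.58 in BN, all called, and by 0.78 in DBN, not called (adjusted p = 0.102).

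UNG, which removes uracil, was higher in H1299shRAD9 by 0.69 in BP (adjusted p = 0.0256) and 0.63 in BN (adjusted p = 0.0394), and differed by 0.48 in CTL without a call. FANCE, a subunit of the Fanconi core complex, was higher by 0.47 in CTL (adjusted p = 0.0357) and 0.58 in BP (adjusted p = 0.0402). FAM175A, also named Abraxas, of the BRCA1-A complex, was higher by 0.40 in CTL (adjusted p = 0.029). EME1, the partner of the MUS81 nuclease, was lower in BP, with a log2 difference of -0.68 (adjusted p = 0.0403), and differed by 0.03 in CTL. The 42 S phase genes had median differences between lines of 0.10 in CTL, 0.27 in DBP, 0.24 in BP, 0.41 in DBN and 0.22 for BN. Those of all features were 0.06, 0.10, 0.12, 0.16 and 0.13. Of the S phase genes 3, 1, 2, 0 and 3 were called higher, beside 6.9%, 1.86%, 4.06%, 1.34% and 4.48% of all features. The part of the S phase genes in the differences of the repair genes was not tested.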

How the data were processed

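RNA from 50 samples was labelled with Cy3 and hybridized to 1-color Agilent human arrays. The authors deposited Feature Extraction files with processed intensity per spot, already background subtracted, and a table of log2 values that, per the study's methods, the authors median normalized and filtered in BRB-ArrayTools. Groups came from the sample titles.

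Control spots and outlier flags were left out, spots of a probe were averaged, and the log2 intensity minus the array median was fitted with limma 3.58.1 in R 4.3.3 (lmFit, eBayes) over the 20079 features that were not below background on more than 25% of arrays. P-values were adjusted by Benjamini-Hochberg over all features, and the brightest probe stood for a gene. Lines were compared unpaired (p below 0.005) and irradiated or bystander groups with the replicate number as a block (p below 0.006), with a false discovery rate below 10%, and lines were compared in their response by an interaction. The study's methods give a paired test at 0.006, and its legends call the samples of the lines unpaired and mark a cutoff of 0.005 for the effect of RAD9 reduction. The replicate number as the pair was taken from the labels. As a check of the pairing, the mean correlation of same-numbered arrays' deviations from group means was 0.469 to 0.525 in H1299shRAD9 (5 of 5 pairs above 0.1 in each comparison), 0.395 and 0.423 in H1299 DBP and BN (5 of 5), and 0.149 and 0.21 in H1299 BP and DBN (3 of 5), where the pairing was kept because the methods used paired sets. The study calls the 5 arrays of a group biological replicates, and p-values measure the spread between these samples, and 5 arrays a group limit the precision. The paper used its stable transfectants interchangeably, and the labels do not tell them apart. The p-values between lines therefore do not measure the spread between transfectants.

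Interactions carried a block of line and replicate. The members and lists were chosen with earlier results of these data known. Named were XPC and DDB2, every member called in any comparison, the member of each pathway with the largest difference between unirradiated lines (ERCC2, APEX1, NHEJ1, MRE11A, BRCA1, FANCD2, MSH6) and at most 5 called genes of the wider list. Of the 51 members 18 had several probes and 13 several tested ones, of which 7 disagreed in sign between unirradiated lines. The scripts were tested on simulated data. Alternatives were other scalings, normexp with an offset of 50, the authors' values, other filters, slide and replicate blocks, and each replicate left out. Added after the data were seen were the 5′ to 3′ index, slide as a fixed block and the omission of H1299 DBN replicate 1. Promoters came from RefSeq (GRCh38.p14). All 51 members matched a RefSeq gene, 2 under current symbols.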

Additional observations from a re-analysis of the deposited data

Results flagged for a closer look

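Levels (log2 over the array median) of the 11 named members were screened in 110 groups of 5 arrays for a highest or lowest array whose gap to its neighbour exceeded 0.71 of the group's range, and 8 groups had one. Chance flags about 1 in 20 groups. DDB2 was at 6.40 in H1299 CTL replicate 1, where the other arrays lay between 6.57 and 6.62. DDB2 was at 5.64 in H1299 DBN replicate 1 (others 6.46 to 6.79), and APEX1 was at 2.72 in the same array (others 3.72 to 3.88). BRCA1 was at 3.98 in H1299shRAD9 BN replicate 4 (others 3.74 to 3.80) and at 2.87 in H1299 BN replicate 3 (others 3.45 to 3.57). NBN was at 3.83 in H1299shRAD9 BN replicate 1 (others 3.58 to 3.64) and at 2.36 in H1299 DBP replicate 1 (others 3.12 to 3.40). MSH6 was at 7.72 in H1299 DBP replicate 2 (others 7.24 to 7.36).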

How the results depend on the processing

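Of the 17 counts of called members, those for H1299shRAD9 BN, for H1299 DBP, BP and BN and for the 4 differences between lines stayed at 0 under every alternative run. Between the unirradiated lines the count of 4 became 2 with the authors' values, without the background criterion, with slide as a random block, with the replicate number as a block or with the 5′ to 3′ index as a covariate, 1 with all 10 groups in 1 fit and 0 with a 1.3-fold criterion, and ranged from 2 to 4 when 1 replicate was left out. The genes behind these counts were not always the same 4. Without replicate 1, and without replicate 2, a member outside the 4 was among those called. In DBP between lines the count of 1 became 0 with normexp, the authors' values, the 1.3-fold criterion or the index, 2 with the replicate number as a block (LIG4 and NBN), and ranged from 0 to 1 with 1 replicate left out. In BP between lines the count of 0 became 1 with the replicate block (XRCC2) and 2 with the index (NTHL1 and ATM). In DBN between lines the count of 0 became 5 with all 10 groups in 1 fit (BRCA1, BRCA2, RAD52, FANCD2 and MSH6) and 2 with the replicate block (XRCC2 and FANCD2), ranged from 0 to 1 with 1 replicate left out and stayed at 0 without H1299 DBN replicate 1. In BN between lines the count of 2 became 0 with 75th percentile scaling, normexp, the authors' values, no background criterion or the 1.3-fold criterion, and ranged from 0 to 0 with 1 replicate left out. Between lines, the mean correlation of same-numbered arrays was -0.059 to 0.073, with 1, 2, 0, 3 and 0 of 5 pairs above 0.1 in CTL, DBP, BP, DBN and BN, so the arrays were taken to share only a number. In H1299shRAD9 DBP the count of 0 became 1 with quantile normalization (ERCC5) or with features above background on all 50 arrays (XRCC2) and ranged from 0 to 2 with 1 replicate left out. In H1299shRAD9 BP the count of 1 became 0 with the authors' values, no background criterion, the 1.3-fold criterion, the mean over probes, slide as a random or a fixed block, all 10 groups in 1 fit, no replicate block or the index, and ranged from 0 to 0 with 1 replicate left out. In H1299shRAD9 DBN it ranged from 0 to 2. In H1299 DBN the count of 0 became 1 with slide as a random block (H2AFX) and 2 with all 10 groups in 1 fit (H2AFX and BRCA2). Differences reversed for XPC between lines in BN with normexp (0.069) and for MRE11A in H1299shRAD9 DBN with the index (-0.46). The causes were not tested, except that the authors' values hold 18 of the members and the 1.3-fold criterion leaves 22. Slide as a random block could not be estimated for the lines in DBP, BP, DBN and BN. Over all features between lines, the share of calls that were higher in H1299shRAD9 was 53.2% in CTL, 34.4% in DBP, 61.8% in BP, 54.4% in DBN and 59.6% for BN. With the authors' values it was 36.8%, 17.4%, 29.7%, 19.1% and 24.4%, with 75th percentile scaling 33.4% in BP, 25.1% in DBN and 37.2% for BN, and with normexp 26.6% in CTL. The number of features called between lines was 2605, 1083, 1319, 496 and 1509 in the same order. It was 1417, 766, 717, 596 and 833 with the authors' values, 139 in DBP, 302 in DBN and 0 for BN with normexp, 6674 in DBP without the background criterion, and 2561 in DBN with all 10 groups in 1 fit. In H1299shRAD9 DBP, BP, DBN and BN it was 260, 324, 562 and 6, and 23, 0, 134 and 0 without the replicate block.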
